A study of Mus musculus with 6 samples.

Results

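The Ly6 genes encode small cell-surface proteins of the Ly6/uPAR family, which share a 3-fingered fold held by disulfide bonds and are mostly tied to the membrane by a lipid (GPI) anchor. Several of them serve as surface markers of blood cells. Ly6d marks lymphoid progenitors committed to the B lineage and plasmacytoid dendritic cells, Ly6a is the stem cell antigen Sca-1, Ly6c2 carries the Ly6C antigen of inflammatory monocytes, Ly6c1 carries it mainly on endothelial and T cells, and Ly6e is a broadly expressed member. Ly6a and Ly6e are known to be induced by interferons.

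These 5 genes, of 16623 in the deposited expression table, are described here across the cells of the mouse liver. They were chosen because earlier results of these data showed them to differ between livers with and without SIRT7, a histone deacetylase of the sirtuin family, so their differences between genotypes are given as a description, with no test. The question asked of Ly6d was in which cells it was detected in SIRT7 KO livers.

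Livers of 3 WT and 3 SIRT7 KO mice of 5-6 mo were profiled with 10x single-cell RNA sequencing. The strain, and how the SIRT7 KO allele was made, are not given in the sources used here, and every cell of the SIRT7 KO animals carries it. The livers were perfused with collagenase, and equal numbers of hepatocytes and non-parenchymal cells were mixed for each mouse, so the share of a cell type among the cells is partly set by this mixing. The table holds 11610 cells, 552 to 5609 per mouse, with 2511947 to 11069411 UMIs (counted molecules) per mouse and a median of 1630 to 3875 UMIs per cell. Sirt7 itself was lower in every SIRT7 KO mouse, with a mean level of 0.1, 0.0814 and 0.139 UMIs per 10000 UMIs of a cell (CP10K) in SIRT7 KO mice 1 to 3 and 0.718, 0.512 and 0.546 in WT mice 1 to 3.

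Cells were clustered without the Ly6 genes and named from marker genes. There were 3715 macrophage-like, 2015 T-like (natural killer cells included), 1764 hepatocyte 1-like (markers of cells near the central vein), 1178 hepatocyte 2-like (markers of cells near the portal vein), 512 endothelial-like and 442 plasma-like cells. A mixed cluster of 1649 dendritic cells, monocytes and B cells was divided by a finer clustering. Hemoglobin genes stood out in the hepatocyte 1-like cells of WT mouse 1, where the red blood cell markers summed to 103 CP10K against 0 to 6.29 in the other mice.

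In macrophage-like cells, interferon-stimulated genes separated the SIRT7 KO mice from each other. The summed level of 38 such genes, B2m left out, was 60.9 CP10K in SIRT7 KO mouse 1, 126 in mouse 2 and 127 in mouse 3, against 55.1 to 67.7 in the WT mice. SIRT7 KO mouse 1 thus lay within the WT range while the other 2 lay above it, and the values of Ly6a in particular are given with and without it.

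All 5 genes are protein-coding and lie on chromosome 15 within 350 kb (GENCODE M21 annotation of mm10). Ly6d spans 15:74762056-74763620 on the minus strand, Ly6e 15:74955051-74959905 on the plus strand, and Ly6a 15:74994877-74998031, Ly6c1 15:75044018-75048830 and Ly6c2 15:75108158-75111970 on the minus strand. Ly6c1 and Ly6c2 are near-identical copies: of 393 coding bases 9 differ (97.7% identical), and 287 of the last 300 transcript bases, where 3′ reads fall, lie in matching blocks. Reads can therefore be split or swapped between the pair, and their levels are uncertain for that reason. The first 90 coding bases are shown because they hold 6 of the 9 differing bases, given in capitals.
Ly6c1: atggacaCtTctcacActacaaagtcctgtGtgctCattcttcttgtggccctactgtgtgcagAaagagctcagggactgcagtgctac
Ly6c2: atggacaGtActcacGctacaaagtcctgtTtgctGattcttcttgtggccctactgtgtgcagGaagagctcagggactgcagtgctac
These stretches lie in exons 2 and 3 of 4 of transcripts Ly6c1-201 (15:75047450-75048511) and Ly6c2-201 (15:75110608-75111667), and are read 5′ to 3′ on the minus strand.

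Ly6d was most abundant in plasmacytoid dendritic, B and plasma cells of both genotypes. In plasmacytoid dendritic-like cells its mean level was 27.5 CP10K in SIRT7 KO mouse 1 (102 cells) and 16.2 in mouse 2 (48 cells), while the single such cell of mouse 3 held 91.6. The WT mice gave 24.5, 27.9 and 13.6 CP10K there, from only 6, 5 and 16 cells. In B-like cells Ly6d stood at 12.5, 8.78 and 12.6 CP10K in the SIRT7 KO mice (the last from 2 cells) and at 11.7, 15.6 and 7.83 in the WT mice. Given the few cells of some mice, no difference was computed in these cell types, and the genotypes overlapped in both of them, in which Ly6d is known as a lineage marker.

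Plasma-like cells, the antibody-secreting descendants of B cells, had the next highest Ly6d. SIRT7 KO mice 1 and 2 gave 5.51 and 3.61 CP10K, and WT mice 2 and 3 gave 6.83 and 4.62, while SIRT7 KO mouse 3 (2.58, 14 cells) and WT mouse 1 (13.8, 12 cells) had too few cells and were left out of the difference. The log2 difference, SIRT7 KO minus WT throughout, was -0.33 (SE 0.32, 2 mice against 2), and the mice overlapped. With the mice of at least 10 cells kept, 3 against 3, it was -1.02. Outside these lineages Ly6d was low in WT mice, with class means of at most 0.394 CP10K.

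Hepatocytes of SIRT7 KO mice carried more Ly6d than those of WT mice. Over both hepatocyte classes the mean level was 0.494, 1.16 and 2.6 CP10K in SIRT7 KO mice 1 to 3 and 0.0961, 0.0336 and 0.14 in WT mice 1 to 3. Every SIRT7 KO mouse lay above every WT mouse, and mouse 3 was the highest. The means were 1.42 ± 1.08 (SD, n = 3) and 0.0899 ± 0.0535 CP10K (SD, n = 3), a log2 difference of 3.19 (SE 0.53, on log2 of the mean CP10K plus 0.05).

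Both zones of the lobule showed it. In hepatocyte 1-like cells Ly6d was at 0.451, 1.35 and 2.55 CP10K in the SIRT7 KO mice against 0.0562, 0.0231 and 0.174 in the WT mice, a log2 difference of 3.34 (SE 0.58). In hepatocyte 2-like cells it was at 0.549, 0.238 and 2.61 CP10K against 0.156, 0.076 and 0.0991, a log2 difference of 2.30 (SE 0.67). The mice did not overlap in either class, but SIRT7 KO mouse 2 was close to WT mouse 1 in the hepatocyte 2-like cells. Without SIRT7 KO mouse 3 the log2 difference over both classes was 2.62, and in hepatocyte 2-like cells it was 1.40. Without mouse 1 it was 3.76 over both classes.

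**Figure D1:**
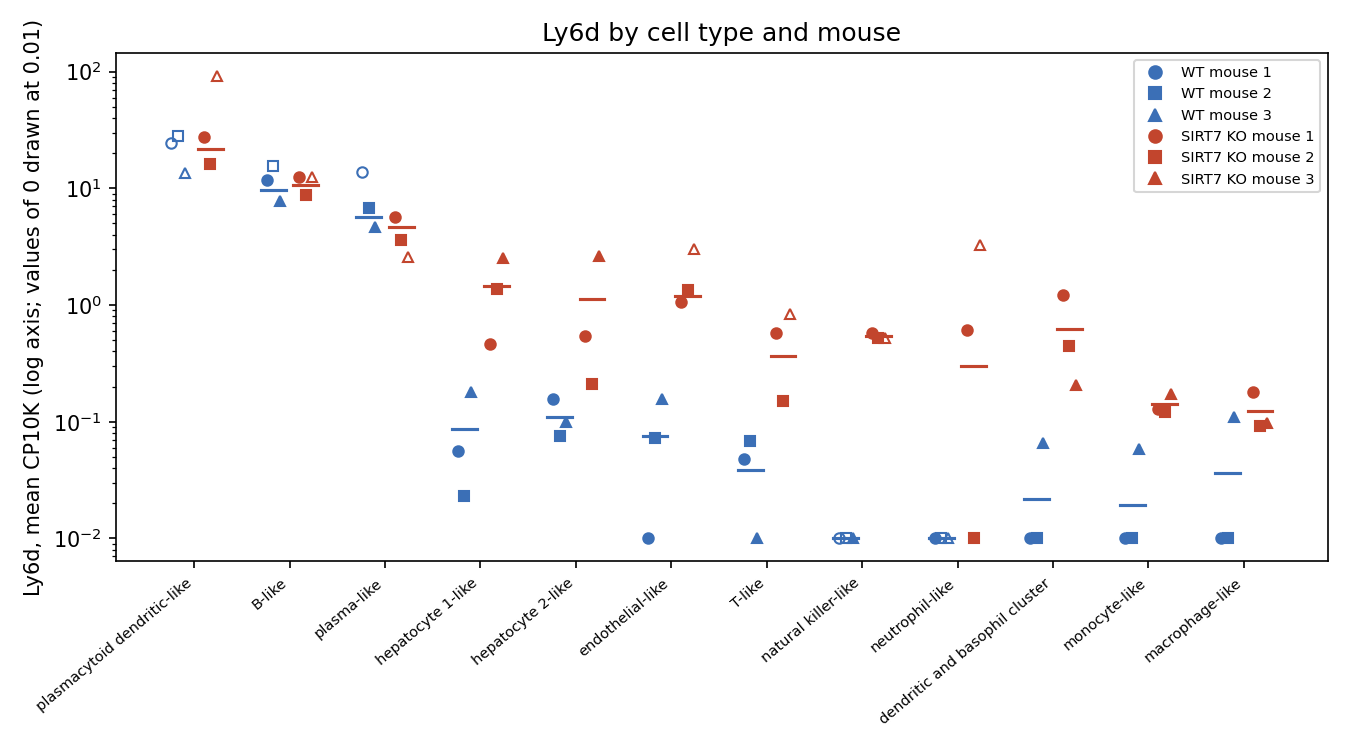
Ly6d, mean CP10K (log axis, 0 drawn at 0.01), in each cell type of each mouse. Filled points are mice with at least 20 cells of the type, open points have fewer, and bars are means over the filled points. Plasmacytoid dendritic-like and B-like cells lie highest in both genotypes, and the hepatocyte classes of the SIRT7 KO mice lie above those of the WT mice.

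Ly6d was also higher in cells of other kinds from SIRT7 KO livers. In endothelial-like cells it was at 1.1 and 1.34 CP10K in SIRT7 KO mice 1 and 2, and at 3.05 in the 8 cells of mouse 3, which was left out of the difference. The WT mice gave 0 (0 of 67 cells, which allows a share of up to 4.48%), 0.0742 and 0.16 CP10K, so the groups did not overlap, and the log2 difference was 3.53 (SE 0.71), or 2.39 with a pseudocount of 0.2.

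T-like cells held 0.791, 0.349 and 0.676 CP10K in the SIRT7 KO mice and 0.0435, 0.0567 and 0.394 in the WT mice. These overlapped through WT mouse 3, in which 29 of the 34 Ly6d UMIs came from 1 cycling cell. The log2 difference was 1.93 (SE 0.56), 2.64 without WT mouse 3, and 1.23 with a pseudocount of 0.2. Few cells held many of the UMIs in SIRT7 KO mice as well. Cycling T-like cells held 14 Ly6d UMIs in 4 of 73 cells of SIRT7 KO mouse 1 and 33 in 9 of 190 cells of mouse 2. Macrophage-like cells, mostly led by Kupffer cell genes such as Clec4f, held 0.301, 0.315 and 0.283 CP10K against 0, 0 and 0.285, overlapping again through WT mouse 3, with a log2 difference of 1.89 (SE 0.65). It was 2.80 without that mouse, 1.43 without WT mouse 1 or 2, and 0.89 with a pseudocount of 0.2, which weighs on the zeros. The zeros of WT mice 1 and 2 come from 55 and 46 cells and allow shares of up to 5.45% and 6.52%. In the finer clustering the macrophage-like cells proper had only 0.178, 0.0921 and 0.0984 CP10K in the SIRT7 KO mice and 0, 0 and 0.11 in the WT mice. A cluster of the class led by other macrophage genes (Cx3cr1 among them) had 0.354, 0.366 and 0.495 CP10K in the SIRT7 KO mice and 0, 0 and 0.271 in the WT mice, from only 17 and 16 cells in WT mice 1 and 2.

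Natural killer-like cells, taken out of the T-like class by the finer clustering, gave 0.573 (230 cells), 0.517 (118) and 0.526 (13) CP10K in the SIRT7 KO mice, and no Ly6d UMI was found in the 14, 19 and 24 cells of the WT mice, which allow shares of up to 21.4%, 15.8% and 12.5%. The Ly6d UMIs of these natural killer-like cells lay in few cells, with 22 in 9 cells, 30 in 4 and 3 in 2 of SIRT7 KO mice 1 to 3. The finer T-like cells gave 0.581, 0.151 and 0.83 CP10K (the last from 17 cells) against 0.048, 0.0681 and 0. Monocyte-like cells were low, at 0.129, 0.12 and 0.174 CP10K against 0, 0 and 0.0583. Higher Ly6d in SIRT7 KO mice was therefore not measured in hepatocytes alone.

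The share of cells with a Ly6d UMI was compared at an equal depth, because SIRT7 KO mouse 3 had deeper cells. Of the hepatocyte-like cells, 54 of 912 (5.92%), 39 of 281 (13.9%) and 179 of 336 (53.3%) had a Ly6d UMI in SIRT7 KO mice 1 to 3. Their exact Clopper-Pearson 95% intervals, which cover counting error only, were 4.48% to 7.66%, 10.1% to 18.5% and 47.8% to 58.7%. In WT mice 1 to 3 it was 13 of 801 (1.62%), 5 of 513 (0.975%) and 2 of 99 (2.02%).

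Thinned to 1000 UMIs per cell, with shallower cells left out (275, 87 and 17 in the SIRT7 KO mice and 101, 107 and 33 in the WT mice), the shares became 4.54%, 11.8% and 21.2% against 0.939%, 0.425% and 2.1%. The genotypes stayed apart, and the distance of mouse 3 from mouse 2 shrank. At the same depth T-like cells, a lineage outside the known Ly6d lineages, gave 6.19%, 2.54% and 6.4% in the SIRT7 KO mice and 0.435%, 0.578% and 1.8% in the WT mice. Endothelial-like cells gave 8.71% and 5.65% in SIRT7 KO mice 1 and 2, 27.2% in 7 cells of mouse 3, and 0%, 0.837% and 2.76% in the WT mice.

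The hepatocyte share of SIRT7 KO mouse 1 was thus below those of its T-like and endothelial-like cells. It was above those of its macrophage-like (2.24%) and neutrophil-like cells (3.62%). In mouse 2 the hepatocyte share was above those of both, and in mouse 3 it was above that of the T-like cells and below those of the few endothelial-like (27.2%) and neutrophil-like cells (29.3%, from a class of 17 cells). These differences were not tested. Macrophage-like cells were lower still, with 2.24%, 1.98% and 2.92% in the SIRT7 KO mice and 0%, 0% and 2.2% in the WT mice.

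**Figure D2:**
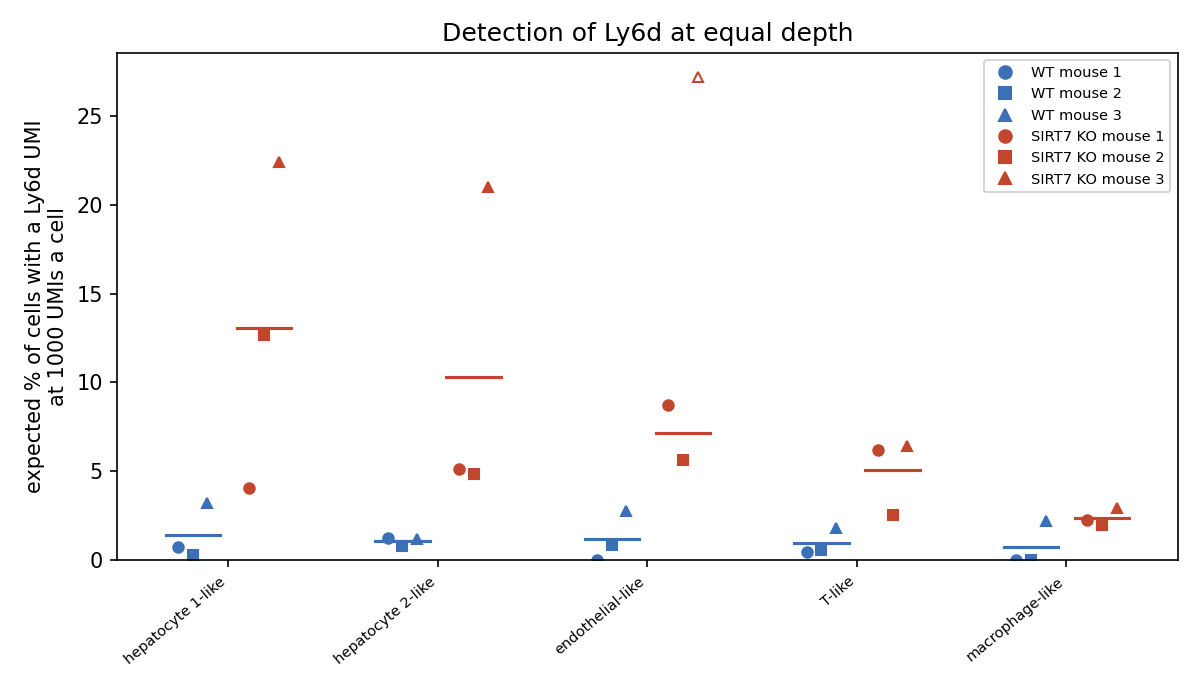
Share of cells with a Ly6d UMI after thinning to 1000 UMIs per cell (%), by cell class and mouse. Filled points are mice with at least 20 cells, open points have fewer, and bars are means over the filled points. In hepatocyte 1-like cells SIRT7 KO mice 1 to 3 sit at 4.08%, 12.7% and 22.4%, above the WT mice at 0.709%, 0.307% and 3.23%. In hepatocyte 2-like cells they sit at 5.1%, 4.86% and 21%, above the WT mice at 1.21%, 0.799% and 1.2%.

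Most Ly6d molecules of a liver lay elsewhere in all mice but SIRT7 KO mouse 3. B-like, plasma-like and plasmacytoid clusters together held 65.6% and 69% of the Ly6d UMIs of SIRT7 KO mice 1 and 2, and 87.6% to 96.9% of those of the WT mice. In SIRT7 KO mouse 3 they held 18.1%, and hepatocyte-like cells held 330 of 452 UMIs (73%). Hepatocyte-like cells held 72 of 1199 (6.01%) and 62 of 699 (8.87%) in SIRT7 KO mice 1 and 2, and 0.434% to 5.8% in the WT mice.

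The ratio of Ly6d to Alb, the RNA of albumin, was compared among 3 classes that do not make albumin. T-like, macrophage-like and endothelial-like cells gave 52, 30.5 and 60.6 Ly6d UMIs per 1000 Alb UMIs in SIRT7 KO mouse 1 and 208, 180 and 250 in mouse 2. In mouse 3 they gave 19, 10.8 and 47.6, the last from 8 cells. Among the WT mice, mouse 3 gave 54.3, 33.2 and 9.05, and mice 1 and 2 gave at most 2. In the T-like cells of WT mouse 3, 29 of the 34 Ly6d UMIs came from 1 cell. The ratio thus differed more between mice than between classes of SIRT7 KO mice 1 and 2. Alb was lower in mouse 2 in all 3 classes, at 3.29, 2.6 and 4.47 CP10K against 21.2, 12.2 and 23.2 in mouse 1. The higher ratios of mouse 2 therefore also reflect its low Alb. The part of free RNA in the Ly6d levels was not tested.

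Markers of the B lineage moved with Ly6d among the hepatocytes of SIRT7 KO mouse 1. There, 16 of 54 Ly6d-positive hepatocyte-like cells (29.6%) held a UMI of 1 of 5 B-cell markers (Ebf1, Cd22, Cd79a, Ms4a1, Pax5), against 15 of 858 (1.75%) of the Ly6d-negative ones. In mouse 2 it was 0 of 39 (3 of 242 of the negative cells), which allows a share of up to 7.69%, and in mouse 3 it was 0 of 179, which allows up to 1.68%. Summed over the list, the B-cell markers ranged from 0 to 0.427 CP10K in the hepatocyte classes of the SIRT7 KO mice and from 0 to 0.142 in those of the WT mice, and all 5 were at 0 in both classes of mouse 3. With every cell holding a B-cell marker left out, the log2 difference of Ly6d in hepatocyte-like cells was 3.14.

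The list of plasmacytoid dendritic cell markers, which includes Bst2, also summed higher in the Ly6d-positive hepatocytes. Its genes were not compared singly between positive and negative cells. The 6 markers summed to 4.46 CP10K in positive and 2.92 in negative cells of SIRT7 KO mouse 1, to 9.17 and 5.78 in mouse 2 and to 6.13 and 5.59 in mouse 3. A UMI of the list was found in 37%, 66.7% and 86.6% of the positive cells and in 32.2%, 50.4% and 78.3% of the negative cells, which were shallower. Bst2, an interferon-stimulated gene, was the only detected marker of this list in the hepatocyte 1-like cells of mouse 3. A UMI of the plasma cell markers (Jchain, Derl3, Eaf2, Fam46c, Mzb1, Xbp1) was found in 35.2%, 23.1% and 59.8% of the positive cells. In the negative cells it was 20.9%, 12.8% and 52.9%. In WT mice 1 to 3, 22.7%, 32.9% and 29.9% of the Ly6d-negative hepatocyte-like cells held one, so such a UMI was common in hepatocyte-like cells of both genotypes. Of the positive cells, 18 of 54, 11 of 39 and 14 of 179 held no UMI of any B, plasmacytoid dendritic or plasma cell marker. This count was not made for the negative cells. With every cell holding such a UMI left out, the log2 difference of Ly6d was 3.41. The part of these cell types in the Ly6d of hepatocyte-like cells was not tested.

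Beside the other classes the list of B-cell markers stood as follows. In T-like cells it summed to 0.825, 0.615 and 0 CP10K in the SIRT7 KO mice and to 0.00926, 0.0354 and 0.206 in the WT mice. With cells holding a B, plasmacytoid dendritic or plasma cell marker left out, the log2 difference of Ly6d in T-like cells was 0.70. In endothelial-like cells the list summed to 0.313 and 0.439 CP10K in SIRT7 KO mice 1 and 2 and to 0, 0 and 0.207 in the WT mice, and the Ly6d difference without cells holding a B-cell marker was 2.93. Macrophage-like cells had 0.246 to 0.53 CP10K of these markers in the SIRT7 KO mice and 0.0549 to 0.489 in the WT mice.

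Ly6d-positive hepatocytes mostly held a single Ly6d molecule. In the SIRT7 KO mice 42, 28 and 107 of the positive cells had 1 UMI and 12, 11 and 72 had more, with a highest count of 5, 8 and 16. They were deeper cells, with a median of 1619.5 UMIs against 1196.5 in the negative cells of mouse 1 1553 against 1145.5 in mouse 2 and 3806 against 3021 in mouse 3. The 12 hepatocyte 1 markers summed to 251 CP10K in positive and 257 in negative cells of mouse 1, to 199 and 190 in mouse 2 and to 269 and 264 in mouse 3, so the positive cells carried the hepatocyte markers at nearly the level of the negative ones.

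Other genes were compared between Ly6d-positive and Ly6d-negative hepatocytes within each SIRT7 KO mouse, as a description, since cells of a mouse are not replicates. The 10 genes with at least 0.5 CP10K in the positive cells of each mouse that were highest by their smallest log2 difference were Nr2c2ap, Ugt2b1, Spsb2, Timmdc1, Pex2, Uckl1, Macf1, Actl6a, Ppp1r3g and Brd3, and these differences ran from 0.45 to 0.68. The filter was set on the positive cells, so nothing is read from the number of such genes. Ugt2b1 encodes a glucuronosyltransferase of hepatocytes, Pex2 a peroxisome assembly factor, Macf1 a cytoskeletal linker and Brd3 a bromodomain protein. After thinning to 1000 UMIs, 5 of these 10 kept their direction in 3 of 3 mice (Nr2c2ap, Timmdc1, Macf1, Ppp1r3g and Brd3). Thinned levels rest on few molecules, since 0.435 CP10K is 1 UMI over the 23 positive cells left in mouse 2. Of the 5 lower genes named by the same rule in the negative cells, Ccl5, Txndc9 and Cog4 kept their direction, while Rraga and Mdm2 did not. Ccl5, a chemokine of T and natural killer cells, was at 0.564 CP10K in the negative cells of mouse 3, but at 0.069 without 2 cells marked as doublets, where its log2 difference was -0.14.

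Ly6a was high in plasmacytoid dendritic, plasma, T and endothelial cells, and was higher in the endothelial-like cells of SIRT7 KO mice than of WT mice. It stood there at 5.04 and 24.3 CP10K in SIRT7 KO mice 1 and 2, at 21.7 in the 8 cells of mouse 3, and at 2.44, 2.58 and 3.72 in the WT mice. The groups did not overlap, although mouse 1 was close to the WT mice. The log2 difference was 1.93 (SE 0.67), 3.06 without SIRT7 KO mouse 1 and 0.81 without mouse 2.

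In macrophage-like cells Ly6a was at 0.653, 6 and 6.04 CP10K in the SIRT7 KO mice and at 0.0394, 0.311 and 0.906 in the WT mice. Mouse 1 lay within the WT range and mice 2 and 3 lay above it. The log2 difference was 3.24 (SE 1.17), 4.27 without mouse 1, and 0.91 without cells holding a B, plasmacytoid dendritic or plasma cell marker (these include Bst2, itself induced by interferon). The same pattern of mice held in monocyte-like cells, at 0.29, 2.28 and 2.87 CP10K against 0, 0.113 and 1.19.

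In plasmacytoid dendritic, T and plasma cells, where Ly6a is also high, the genotypes overlapped. Plasmacytoid dendritic-like cells had 6.56 CP10K (102 cells) and 15.5 (48 cells) in SIRT7 KO mice 1 and 2, 21.1 in the single cell of mouse 3, and 6.98, 6.32 and 6.06 in the WT mice, from 6, 5 and 16 cells. SIRT7 KO mouse 1 lay within the WT range there, and mice 2 and 3 lay above it. T-like cells had 2.7, 6.8 and 4.12 CP10K in the SIRT7 KO mice and 3.37, 3.59 and 5.74 in the WT mice, a log2 difference of 0.04. Plasma-like cells had 8.07 and 8.9 CP10K against 8.4 and 8.14, a difference of 0.03. Hepatocyte-like cells were low, with 0.16, 0.278 and 0.208 CP10K against 0.0329, 0.0697 and 0.346, and the groups overlapped.

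Ly6a is plotted against the summed interferon-stimulated genes because SIRT7 KO mice 2 and 3 stood apart in both. In endothelial-like cells that sum was 57.8 and 102 CP10K in SIRT7 KO mice 1 and 2 and 101 in the 8 cells of mouse 3, against 41.1 to 50 in the WT mice. The part of the interferon-stimulated genes in the Ly6a levels was not tested.

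**Figure D3:**
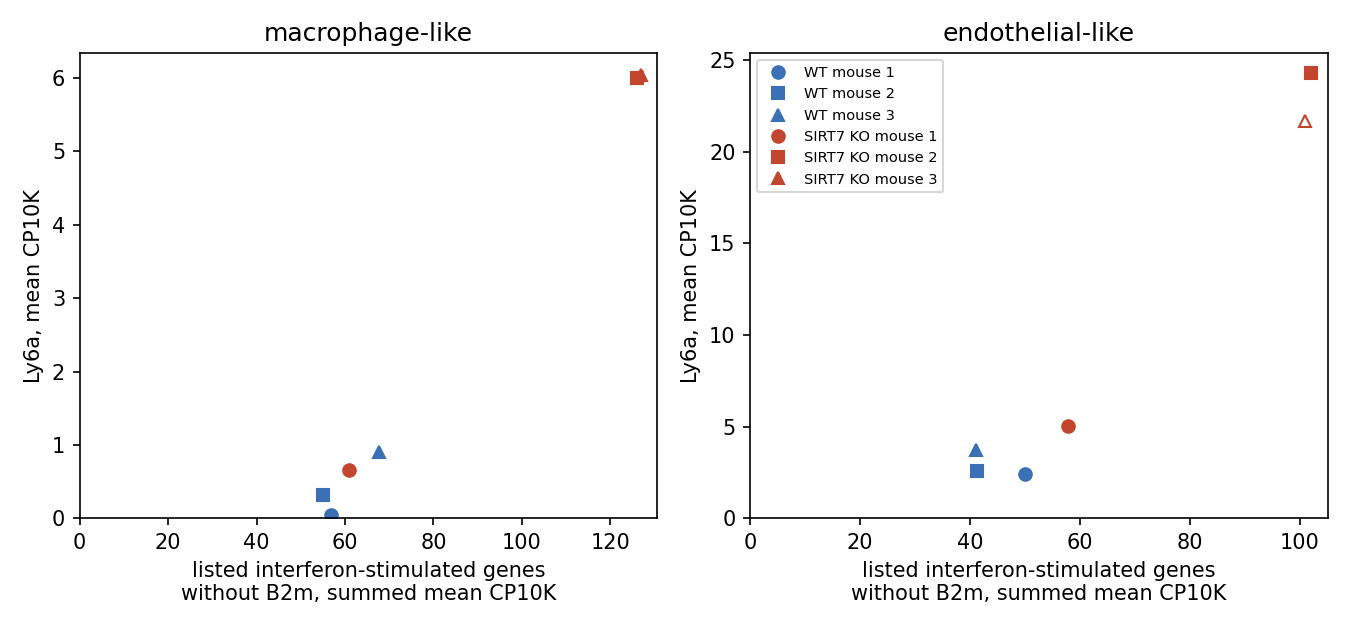
Mean Ly6a (CP10K) against the summed level of the interferon-stimulated genes without B2m (CP10K) in macrophage-like and endothelial-like cells, 1 point per mouse. Filled points are mice with at least 20 cells, open points have fewer. SIRT7 KO mice 2 and 3 lie apart at a high sum and a high Ly6a, and SIRT7 KO mouse 1 lies near the WT mice.

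Ly6e was the most abundant of the 5 in macrophage-like cells. Its level there was 15.6, 21.3 and 24.5 CP10K in the SIRT7 KO mice and 15.5, 14.8 and 18.2 in the WT mice, overlapping through SIRT7 KO mouse 1, with a log2 difference of 0.32 (SE 0.19). In T-like cells it was at 7.05, 7.46 and 8.87 CP10K against 7.63, 7.97 and 9.99, a difference of -0.13. Endothelial-like cells had 3.79 and 8.7 CP10K in SIRT7 KO mice 1 and 2 and 2.16, 1.84 and 4.72 in the WT mice, which overlapped, a difference of 1.09 (SE 0.41), or 1.69 without mouse 1 and 0.50 without mouse 2.

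In hepatocytes Ly6e did not move as Ly6d did. Hepatocyte 1-like cells had 0.915, 1.23 and 2.36 CP10K in the SIRT7 KO mice and 1.8, 1.97 and 1.52 in the WT mice, a log2 difference of -0.33. Hepatocyte 2-like cells had 1.91, 2.71 and 3.06 CP10K against 1.3, 1.05 and 2.72, a difference of 0.68. The 2 classes thus differed in sign, and in both the mice overlapped.

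Ly6c2 was highest in plasmacytoid dendritic-like, monocyte-like and plasma-like cells. Monocyte-like cells, in which it is the defining antigen, had 4.29, 10.8 and 7.06 CP10K in the SIRT7 KO mice and 2.04, 3.49 and 2.14 in the WT mice, with every SIRT7 KO mouse above every WT mouse. Endothelial-like cells had 0.268 and 1.09 CP10K in SIRT7 KO mice 1 and 2, none in the 8 cells of mouse 3, and 0, 0 and 0.221 in the WT mice, a log2 difference of 2.78 (SE 0.88). It was 1.86 without SIRT7 KO mouse 2 and 3.70 without mouse 1, and its size depends on the pseudocount, as 2 WT mice were at 0. T-like cells had 1.76, 2.76 and 0.496 CP10K against 1.38, 1.02 and 1.22, and overlapped, with a difference of 0.17. In macrophage-like cells the level was 0.106 to 0.944 CP10K against 0 to 0.331, and in hepatocyte-like cells it was at most 0.193.

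Ly6c1 was rare. T-like cells were the only class in which it passed the filter on low levels, at 0.347, 0.147 and 0.244 CP10K in the SIRT7 KO mice and at 0.459, 0.264 and 0.387 in the WT mice. These overlapped, with means of 0.246 ± 0.1 and 0.37 ± 0.0986 CP10K (SD, n = 3 each) and a log2 difference of -0.54 (SE 0.39). No Ly6c1 UMI was found in hepatocyte-like cells of 5 of 6 mice, which allows shares of up to 0.329% to 1.07% of their cells.

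**Figure D4:**
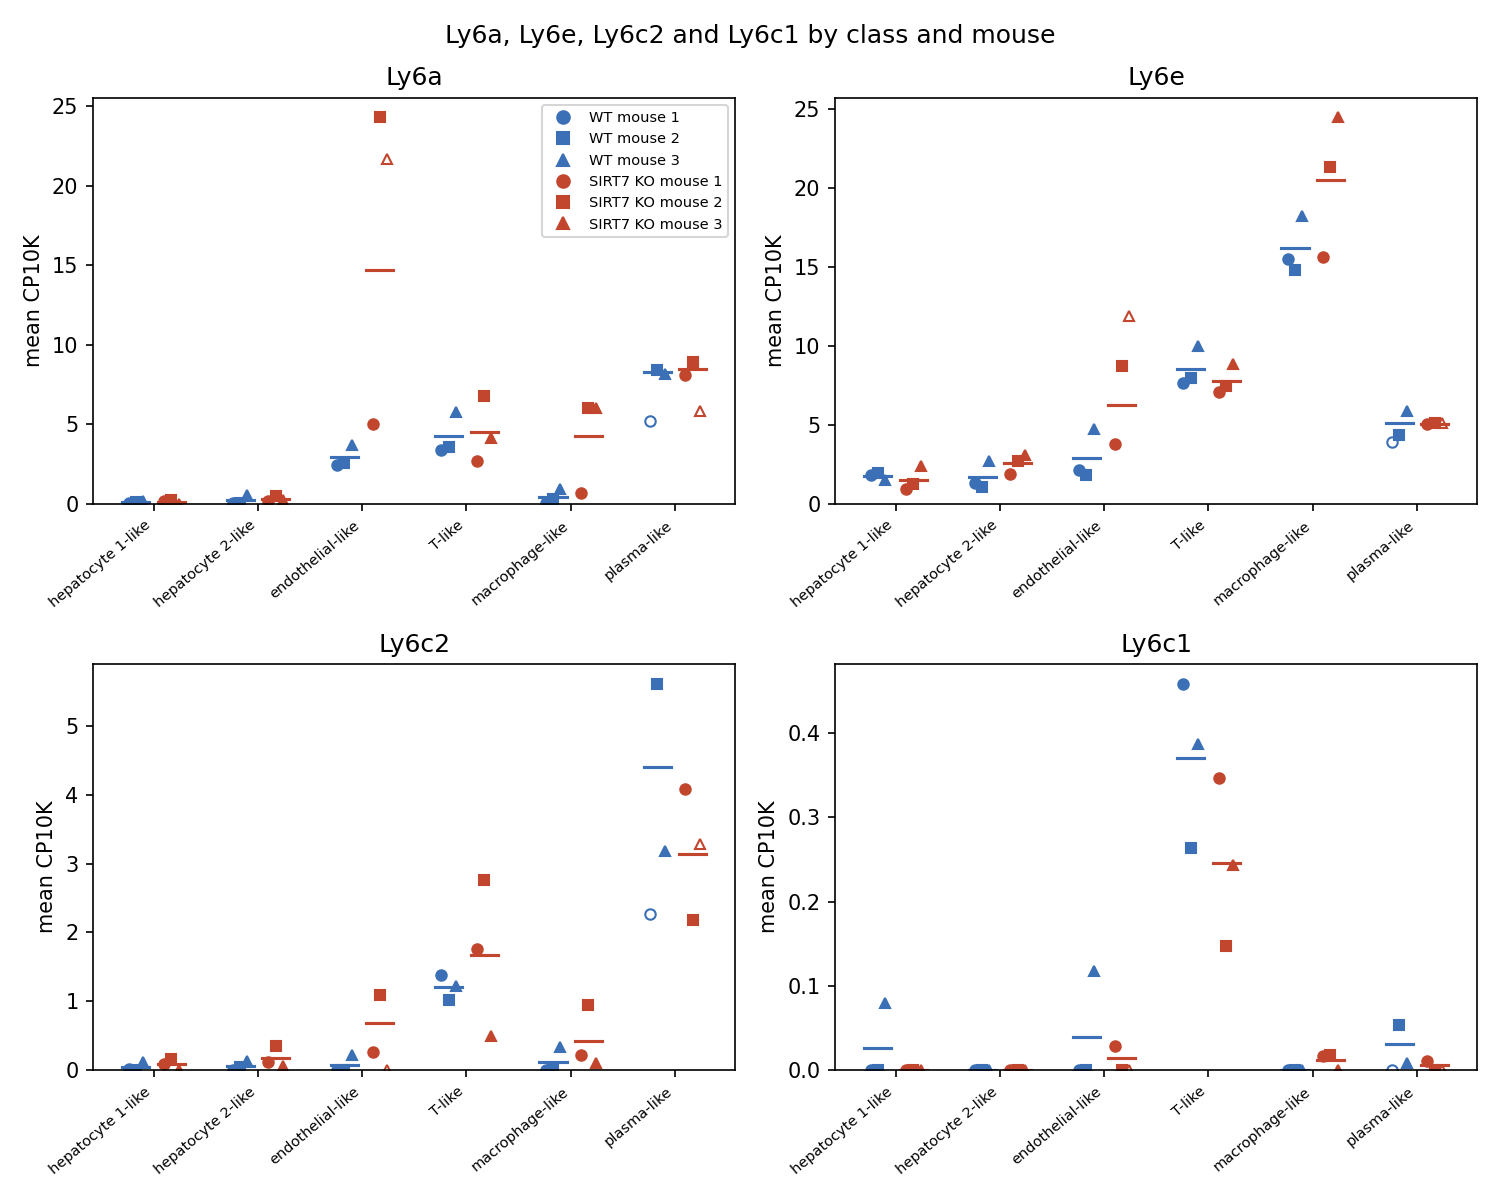
Mean level (CP10K) of Ly6a, Ly6e, Ly6c2 and Ly6c1 by cell class and mouse, 1 panel per gene. Filled points are mice with at least 20 cells, open points have fewer, and bars are means over the filled points. Ly6e is highest in macrophage-like cells, and Ly6a reaches 24.3 CP10K in the endothelial-like cells of SIRT7 KO mouse 2.

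Over the members, genes were counted whose SIRT7 KO mice all lay above the WT mice, among mice with at least 20 cells of the class. The count was 1 of 4 tested in hepatocyte 1-like, hepatocyte 2-like and both hepatocyte classes together (Ly6d each time). It was 3 of 4 in endothelial-like cells (Ly6d, Ly6a and Ly6c2), and 0 of 4, 0 of 5 and 0 of 4 in macrophage-like, T-like and plasma-like cells. Of all genes tested, 7.95%, 12.8% and 9.68% did so in the hepatocyte classes in that order, 9.82% in endothelial-like cells, and 7.14%, 5.23% and 26% in the other 3. Endothelial-like cells had 3 WT and 2 SIRT7 KO mice, and plasma-like cells 2 and 2. The 8 endothelial-like cells of SIRT7 KO mouse 3, left out there, held no Ly6c2, below WT mouse 3 (0.221 CP10K). The median log2 difference of the members was 0.80 over both hepatocyte classes (0.15 over all genes), 1.85 in macrophage-like cells (-0.03), 0.04 in T-like cells (-0.05), 2.36 in endothelial-like cells (-0.05) and -0.16 in plasma-like cells (0.23). These counts rest on the contrast the genes were chosen on.

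The relatives of the family that had not been chosen were tested with limma over all genes of each class. Of 32 listed Ly6/uPAR genes, 2 to 6 passed the filter in a class, and none passed an adjusted p of 0.05 in any of the 7 comparisons. At an unadjusted p under 0.05 there were 2, both lower: Cd59a, an inhibitor of complement, in endothelial-like cells (log2 difference -1.99, SE 0.79, adjusted p = 0.649) and Ly6k in plasma-like cells (-2.54, SE 0.54, adjusted p = 0.16). Gpihbp1, which holds lipoprotein lipase on capillary endothelium, differed by 0.04 (SE 0.30, adjusted p = 0.98) in endothelial-like cells. Without SIRT7 KO mouse 1, which left a single SIRT7 KO mouse, the Cd59a difference was -3.36. Without WT mouse 2 it was -1.98 (adjusted p = 0.0287 by limma). Without WT mouse 2 or WT mouse 3 the Ly6k difference was -2.68 or -2.40, each with a single WT mouse whose spread was taken from the other group.

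Interferon-stimulated genes, the other list, of 39 genes, held a few that rose in hepatocytes and endothelial cells. By limma, 1 of 34 tested rose in hepatocyte 1-like cells, 1 of 32 in hepatocyte 2-like cells and 2 of 38 in endothelial-like cells at an adjusted p of 0.05, where 0.139%, 0.107% and 0.0564% of all genes were called higher. Ifi27 rose in hepatocyte 1-like cells, from 1.32, 1.79 and 0.691 CP10K in the WT mice to 4.56, 10 and 12.3 in the SIRT7 KO mice (log2 difference 2.75, SE 0.40, adjusted p = 0.00872). Rsad2, the antiviral enzyme viperin, rose in hepatocyte 2-like cells, from 0.0374, 0 and 0 CP10K to 0.531, 1.22 and 0.367 (3.49, SE 0.71, adjusted p = 0.0321). The fitted size of the Rsad2 difference depends on the pseudocount, as it was at 0 in 2 WT mice. In endothelial-like cells Ifi44 (2.41, SE 0.49, adjusted p = 0.0102) and Irf7, a transcription factor of the interferon response (2.76, SE 0.58, adjusted p = 0.0182), rose. Irf7 stood there at 0.828 and 2.97 CP10K in SIRT7 KO mice 1 and 2 and at 0.112, 0.138 and 0.406 in the WT mice.

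The calls of Ifi44, Irf7 and Rsad2 depended on single mice. Ifi27 kept its call with each SIRT7 KO mouse left out (adjusted p = 0.0193 at most). Ifi44 and Irf7 lost theirs without WT mouse 1 (log2 differences 2.37 and 2.47, adjusted p = 0.108 and 0.236). Without SIRT7 KO mouse 2, which left a single SIRT7 KO mouse in endothelial-like cells, their differences were 1.72 and 1.87. Rsad2 lost its call without SIRT7 KO mouse 2 (3.03, adjusted p = 0.111) and without WT mouse 1, 2 or 3 (adjusted p = 0.0683, 0.0516 and 0.0733). Without SIRT7 KO mouse 1, 4 interferon-stimulated genes passed in hepatocyte 1-like, 3 in hepatocyte 2-like, 6 in endothelial-like, 7 in macrophage-like and 2 in T-like cells.

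No interferon-stimulated gene passed in the other comparisons by limma. Over both hepatocyte classes 0 of 33 passed, where 0.0203% of all genes were called higher. In macrophage-like cells it was 0 of 39 (0.131% of all genes), in T-like cells 0 of 38 (0.05%) and in plasma-like cells 0 of 29 (0.052%). At an unadjusted p under 0.05 there were 9, 15, 4 and 4 higher in that order, and 1 lower in T-like cells. Of all genes tested, 724 of 9856, 1051 of 9943, 696 of 10009 and 499 of 7699 had such a p in either direction. The median log2 difference of the list was 0.58, 0.60, 0.28 and 0.31 in these comparisons. It was 0.89 in endothelial-like cells, in which all 38 tested genes were positive. Without WT mouse 2 or WT mouse 3, plasma-like cells kept a single WT mouse, so no count is given for them.

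The genes most like each member across the 42 class and mouse means, by Pearson r on the log2 scale, were as follows. Points of 1 class share their cell type, and those of 1 mouse share a library. For Ly6d they were Cd79a (r = 0.80), Fcrla (0.78), Iglc3 (0.78), Ms4a1 (0.76) and Ebf1 (0.75), which are B-lineage genes. For Ly6a they were Wls (0.84), Ccnd2 (0.82) and Shisa5 (0.81), for Ly6e Pou2f2 (0.92) and Ckb (0.92), for Ly6c2 Cyfip2 (0.89) and Itgb7 (0.83), and for Ly6c1 Sh2d1a (0.89) and Fam189b (0.88).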

How the data were processed

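Per the study's methods and labels, the authors aligned the 10x 3′ reads with Cell Ranger 6.0.0 to mm10, removed cells under 500 genes or over 5% mitochondrial reads and genes in under 3 cells, scaled each cell to 10000 counts and deposited the natural log of the value plus 1. Whole UMIs were recovered from these deposited natural log values in all 11610 cells (within 0.02), and 13 barcode sequences occurred in more than 1 mouse (26 cells). Cells were clustered and named with Scanpy 1.11.5 from fixed markers.

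Levels are means of CP10K over the cells of a class in a mouse, with at least 20 cells. They were fitted as log2 (mean + 0.05) with limma 3.58.1 in R 4.3.3 (trend, robust, two-sided, Benjamini-Hochberg over all genes with a mean of at least 0.05), checked on simulated data. P-values measure the spread between 3 mice a group at most. Members and lists were chosen with earlier results of these data known. Named genes are the members, the relatives that passed the filter, interferon-stimulated genes past the threshold, the genes of Ly6d-positive cells and the most alike genes. Scrublet marked 46 cells (0.396%), too few to have worked, so the top 5% of scores were also left out. The study's test over cells was not used. Sequences and positions are from GENCODE M21. Of the fixed B-cell markers, 1 is not reported here and was left out of the summed marker levels.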

Additional observations from a re-analysis of the deposited data

How the results depend on the processing

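The differences of the members were recomputed under at most 18 alternative settings for each gene and class, which gave 485 values. Of these 475 lay within 1 SD of the main value, 10 lay further off, and 459 kept the sign. The SD is that between mice of the same genotype, so an outlying mouse widens it. The other values turned the sign, as for Ly6e over both hepatocyte classes, which was positive in 7 of 18. Larger differences turned as well. Ly6c1 in T-like cells ran from -0.78 to 0.05 and Ly6e in macrophage-like cells from -0.13 to 0.51. Ly6a over both hepatocyte classes ran from -0.18 to 1.39. No alternative turned the sign of Ly6d. Alternatives that left out the top 5% of Scrublet scores, or cells with a B, plasmacytoid or plasma marker, were chosen after seeing the data. The Ly6d log2 difference in both hepatocyte classes ran from 2.62 to 3.76 with each mouse left out and was 2.27 with a pseudocount of 0.2. Thinning to 1000 UMIs moved the share of Ly6d-positive hepatocytes in SIRT7 KO mouse 3 from 53.3% to 21.2%, and left 5 of 10 higher and 3 of 5 lower genes of these cells with their direction. Gpihbp1 in endothelial-like cells turned sign, to -0.09 from summed UMIs, -0.11 with the replicate block, and -0.02 and -0.11 without WT mouse 2 or 3 (-0.11 to 0.26 with each mouse left out). The counts of genes called depended on the settings, and the cause was not tested. Hepatocyte 1-like: 43 genes, 27 with a filter at 0.2, 143 from summed UMIs, 216 without B, plasmacytoid or plasma marker cells, 23 to 171 with each mouse left out. Hepatocyte 2-like: 27, 48 with pseudocount 0.2, 13 with no filter, 8 with a filter at 0.2, 13 from summed UMIs, 57 without the marker cells, 7 to 177 with each mouse left out. Both hepatocyte classes: 11, 3 with no filter, 3 from summed UMIs, 3 to 33. Macrophage-like: 20, 1 with no filter, 9 without the marker cells, 1 to 100. T-like: 12, 7 with a filter at 0.2, 7 from summed UMIs, 38 without the marker cells, 7 to 142. Endothelial-like: 21, 38 with pseudocount 0.2, 81 with no filter, 9 with a filter at 0.2, 6 from summed UMIs, 36 without the top 5% of scores, 7 to 243. Plasma-like: 6, 10 with pseudocount 0.2, 68 with no filter, 0 with at least 10 cells, 3 to 871. Mice share numbers only: same-numbered mice correlated at -0.14 to 0.14, so the numbers do not pair them. With the number as a replicate block Ifi27 in hepatocyte 1-like cells lost its call (adjusted p = 0.229 by limma), 5 interferon-stimulated genes passed in macrophage-like cells, and the counts were 2, 62, 19, 148, 4 and 74 in the order above up to endothelial-like cells, and plasma-like cells had no residual degrees of freedom. Beyond single mice, Ifi44 and Irf7 lost their calls with a filter at 0.2 (adjusted p = 0.0655 and 0.111) and from summed UMIs (0.422 and 0.577), Rsad2 did with no filter, a filter at 0.2 and summed UMIs (0.0804, 0.173 and 0.108), while Cd59a passed with no filter (adjusted p = 0.000837) and Ly6k with no filter or pseudocount 0.2 (6.01e-05 and 0.0247). Without the marker cells Rsad2 had an adjusted p of 0.541. Leaving out the marker cells could not be fitted in endothelial-like and plasma-like cells, as too few mice kept 20 cells. Depth limits Ly6d in single hepatocytes, as most positive ones held 1 UMI.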

Other observations

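Neutrophil-like and stellate-like cells were not compared, as too few mice had enough of them. In neutrophil-like cells, Ly6e was at 4.84, 4.99 and 5.5 CP10K in the SIRT7 KO mice and at 1.45, 1.08 and 1.89 in the WT mice, and Ly6d was at 0.605, 0 and 3.29 CP10K against 0, 0 and 0. In stellate-like cells, the vitamin A-storing cells of the liver, Ly6a was at 5.54, 18.3 and 13.5 CP10K against 0, 0.467 and 7.33. In neutrophil-like cells the mice had 9 to 215 cells and in stellate-like cells 1 to 13, and none of these values was tested.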
